A study of Homo sapiens with 18 samples.

Results

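The antiviral TRIM genes examined here are TRIM5, TRIM6, TRIM14, TRIM21, TRIM22, TRIM26, TRIM34, TRIM38 and TRIM56. They were chosen by name from the tripartite motif family, not by a cut on measured values, but with earlier results of these data known. All 9 have a row among the 35044 genes of the count table, which also holds 49 other TRIM genes. RNA-seq was performed on 18 libraries of the breast cancer cell line HCC1937, 3 for each of 6 conditions. HCC1937-EV is the BRCA1-mutated parental line with an empty vector. In HCC1937-OE-BRCA1 wild-type BRCA1 is overexpressed. Each line was profiled untreated and after 12 h and 24 h of the PARP inhibitor (PARPi) olaparib. The comparisons ask how these genes responded to PARPi, and whether the response differed between the lines. The sample descriptions name olaparib for the untreated libraries too and call HCC1937-EV wild type, so line and time were read from the sample titles. They do not say whether HCC1937-OE-BRCA1 is a single clone, or whether the 3 libraries of a condition came from separate cultures, so p-values measure only the spread between these libraries.

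Most TRIM proteins carry a RING domain beside one or more B-box domains and a coiled coil, and most act as E3 ubiquitin ligases. Several restrict viruses directly by binding their capsids, while others attach ubiquitin to, or act as adaptors of, the sensors and kinases that lead from viral RNA or DNA to IRF3 and type I interferon. Many TRIM genes are known to be induced by interferon, through promoter elements bound by IRF proteins and their partners.

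The 18 libraries held 15081973 to 17571922 counts each, and levels below are CPM, read counts scaled to a common library size, after TMM normalization, where 1 count is worth 0.0590 to 0.0679 CPM. The libraries of the lines stood far apart: log2 levels of libraries of different lines correlated at r = 0.728 to 0.753, against 0.976 to 0.990 within a line. The HCC1937-EV libraries went against their description as breast epithelial cells in several defining markers. EPCAM had 1 count over the 9 HCC1937-EV libraries, against 252 to 352 CPM in HCC1937-OE-BRCA1, KRT5 read at most 0.124 against 1062 to 1742 CPM, and CDH1 at most 1.20 against 330 to 488 CPM. Of 5 breast epithelial markers 3 passed 1 CPM in HCC1937-EV (sum 2421 to 3165 CPM, largely KRT8 and KRT18) and 5 in HCC1937-OE-BRCA1 (3979 to 6521 CPM). Of 5 basal markers the numbers were 3 (283 to 357 CPM) and 5 (2727 to 4430 CPM, largely KRT5 and KRT17). FOXC1, a basal transcription factor, went the other way, with 126 to 168 CPM in HCC1937-EV and 59.4 to 69.9 CPM in HCC1937-OE-BRCA1. Leukocyte markers summed to 0.240 to 1.06 CPM in HCC1937-EV and 33.7 to 86.8 CPM in HCC1937-OE-BRCA1, where CD14 made up 31.5 to 85.9 CPM and PTPRC at most 2.22 CPM. Between HCC1937-EV and HCC1937-OE-BRCA1, fibroblast markers summed to 97.0 to 153 against 6.28 to 11.9 CPM, largely COL1A1 (89.0 to 143.5 against 5.85 to 11.4 CPM). PDGFRB read 6.34 to 11.3 against at most 0.1885 CPM, and COL1A2 and DCN at most 0.373 CPM in either line. Endothelial markers summed to 1.11 to 2.89 against 17.3 to 27.0 CPM, largely PECAM1 (0.740 to 2.65 against 9.92 to 20.7 CPM). CDH5 read at most 0.192 against 4.54 to 8.35 CPM, and VWF at most 0.890 CPM in either line. ESR1 read 1.28 to 4.31 against 10.9 to 16.9 CPM. BRCA1 itself read 126, 111 and 117 CPM in untreated HCC1937-EV and 166, 122 and 127 CPM in untreated HCC1937-OE-BRCA1, which overlap (log2 fold change 0.24, SE 0.11, adjusted p = 0.0654). At 24 h it read 155 to 169 CPM in HCC1937-OE-BRCA1 and 90.9 to 99.5 CPM in HCC1937-EV, without overlap, and its response at 24 h differed between the lines (0.54, adjusted p = 0.023). BRCA1 status and the other differences between the lines cannot be told apart, and in bulk RNA neither can fewer cells of a type and less RNA per cell.

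Of the 9 genes, 5 lie on the short arm of chromosome 11 (GRCh38, GENCODE 29). TRIM6 (chr11:5596109-5612958), TRIM34 (chr11:5619764-5644398) and TRIM22 (chr11:5689689-5737089) are on the plus strand. The minus-strand TRIM5 gene body (chr11:5663557-5938619) spans the whole of TRIM22, although the exons of this pair share no base. TRIM21 (chr11:4384897-4393696, minus strand) lies apart from that cluster. TRIM26 (chr6:30184455-30213427, minus strand) and TRIM38 (chr6:25962802-25991226, plus strand) are on chromosome 6, TRIM14 (chr9:98069275-98119212, minus strand) on chromosome 9 and TRIM56 (chr7:101085439-101097967, plus strand) on chromosome 7. Of the exonic bases, 83.0% of TRIM34 and 29.3% of TRIM6 belong also to the read-through gene TRIM6-TRIM34. How reads on shared exons or opposite strands were assigned is not given in the sources used here, so the levels of TRIM34 and TRIM6 are uncertain. On the same strand, 10.7% of TRIM22 is shared with OR56B1 and 8.0% of TRIM5 with AC104389.4. On the opposite strand, 7.7% of TRIM14 is shared with NANS and 2.9% of TRIM38 with U91328.2.

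Promoter sequence is shown because 6 of these genes rose in the same line in the results that follow; genes without a called rise are included. RefSeq promoter windows (GRCh38.p14, 250 bases before to 50 bases after the annotated start) were found for 8 of the 9 genes, TRIM22 being the exception. They were searched on both strands for the interferon-stimulated response element (ISRE) as GAAANNGAAA, for the shorter IRF core AANNGAAA, which lies inside every ISRE match, and for the gamma-activated sequence (GAS) as TTCNNNGAA. An ISRE match stood in the windows of TRIM5, TRIM14, TRIM21, TRIM26 and the first of 2 starts of TRIM34, against 3.57% of all 35116 promoter windows. TRIM38, TRIM56 and the second start of TRIM34 held only the IRF core, which 22.8% of all windows hold, TRIM6 held none of the motifs, and no window held the GAS (7.66% of all). Each stretch of 30 bases below reads 5′ to 3′ along the gene, and the capitals mark the ISRE match or matches, or for TRIM38 and TRIM56 the IRF core match nearest the start. They lie, in the order given, at chr11:5685082-5685111, chr9:98119229-98119258, chr11:4393663-4393692, chr6:30213578-30213607, chr11:5624901-5624930, chr6:25962763-25962792 and chr7:101085466-101085495, with TRIM34, TRIM38 and TRIM56 on the plus strand.
TRIM5: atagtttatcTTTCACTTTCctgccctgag
TRIM14: acggccgaggTTTCGGTTTCccttgggagc
TRIM21: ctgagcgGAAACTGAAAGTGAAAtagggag
TRIM26: cgcctgaTTTCAGTTTCCATTTCgctgccc
TRIM34: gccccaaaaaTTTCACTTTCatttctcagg
TRIM38: tcccacagtagTTTCACTTctcagtttaat
TRIM56: agtacaattagTTTCAGTTttgtttctttt
TRIM21 and TRIM26 each held 2 overlapping ISRE matches, in TRIM21 18 to 33 bases after the start and in TRIM26 between positions -194 and -179. In TRIM5 and TRIM14 the match ended 18 and 17 bases before the start. A match is a stretch of letters and was not tested as a binding site.

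In HCC1937-OE-BRCA1, 5 of the 8 TRIM genes with enough counts to be tested rose after 12 h of PARPi and 6 rose after 24 h, and none fell. Over all 18335 genes tested, 1.7% rose and 0.605% fell at 12 h, and 4.71% rose and 3.55% fell at 24 h. Over the 8 genes the median log2 fold change reached 0.50 at 12 h and 0.45 at 24 h, beside 0.00 and 0.02 over all genes tested. TRIM34 was not tested: it had 25 counts over the 18 libraries and no more than 5 in any of them.

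The restriction factors TRIM5 and TRIM22 were among the genes that rose. TRIM22, an interferon-induced gene known to restrict HIV-1 and influenza virus, read 23.7, 17.8 and 18.8 CPM in untreated HCC1937-OE-BRCA1, 62.9, 72.5 and 67.7 CPM at 12 h and 61.9, 74.1 and 74.5 CPM at 24 h. All 6 treated libraries lay above all 3 untreated ones, with 3.37-fold at 12 h (log2 fold change 1.75, SE 0.16, adjusted p = 7.68e-07) and 3.49-fold at 24 h (1.80, SE 0.16, adjusted p = 3.23e-07). This was the largest rise among the 8 genes at both times. TRIM5, whose alpha form binds incoming retroviral capsids, went from 18.5, 14.3 and 13.7 CPM to 24.6, 25.2 and 26.8 CPM at 12 h and 26.6, 26.2 and 28.1 CPM at 24 h. Its untreated replicate 1 lay closest to the treated libraries, without reaching them (1.65-fold at 12 h, adjusted p = 0.000879; 1.74-fold at 24 h, adjusted p = 0.000168). TRIM34, the relative of TRIM5 that shares its capsid-binding design, had 7 counts over the 9 HCC1937-OE-BRCA1 libraries and 18 over the 9 HCC1937-EV libraries. Its highest level, 0.313 CPM, lay near the 0.177 to 0.204 CPM that a count of 0 allows (3 counts, covering counting error only), so a response was not detectable at this depth.

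TRIM21, the cytosolic antibody receptor that marks antibody-coated virus for degradation, also rose. It read 11.5, 10.97 and 10.3 CPM untreated, 21.7, 16.6 and 20.3 CPM at 12 h and 17.02, 23.6 and 20.7 CPM at 24 h. The treated and untreated libraries did not overlap (1.79-fold at 12 h, SE 0.14 on the log2 scale, adjusted p = 0.00129; 1.88-fold at 24 h, SE 0.14, adjusted p = 0.000341).

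TRIM14, TRIM56 and TRIM38 act on the RNA and DNA sensing pathways. TRIM14, an adaptor that joins MAVS at the mitochondrion and stabilizes cGAS, read 303, 297 and 329 CPM untreated, 431, 467 and 474 CPM at 12 h and 381, 376 and 395 CPM at 24 h. Its values were thus highest at 12 h (log2 fold change 0.56, SE 0.08, adjusted p = 0.000318) and lay between at 24 h (0.31, SE 0.08, adjusted p = 0.0259). TRIM56, a ligase linked to TLR3 and STING signalling, had the same order, with 160, 145 and 170 CPM untreated, 219, 201 and 221 CPM at 12 h and 202, 183 and 202 CPM at 24 h (0.43, SE 0.10, adjusted p = 0.0123 at 12 h; 0.31, SE 0.10, adjusted p = 0.0498 at 24 h). TRIM38, known mainly as a brake on signalling by TRIF and by TAB2, read 76.0, 63.8 and 57.4 CPM untreated, 83.8, 89.7 and 87.0 CPM at 12 h and 96.0, 101 and 96.4 CPM at 24 h. Its 12 h difference missed the threshold (0.40, SE 0.13, adjusted p = 0.118), although the libraries did not overlap, and at 24 h it passed (0.57, SE 0.13, adjusted p = 0.00646).

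The calls of TRIM14 and TRIM56 at 24 h were the least firm. Both were lost with a minimum log2 fold change of 0.5. Without the filter on low counts they had adjusted p of 0.185 and 0.231. With the compared conditions only these were 0.138 and 0.164. DESeq2 size factors also cost TRIM56 its 24 h call (adjusted p = 0.058). Its 12 h call was lost with that minimum and with the compared conditions only (adjusted p = 0.129). In a model of the 9 HCC1937-OE-BRCA1 libraries alone, TRIM14 gave 0.28 (adjusted p = 0.0579) and TRIM56 0.28 (adjusted p = 0.0797) at 24 h, while TRIM5, TRIM21, TRIM22 and TRIM38 stayed called at 24 h. The 24 h call of TRIM14 was lost without untreated replicate 2 (0.28, adjusted p = 0.109) or any 24 h library (0.29 to 0.33, adjusted p up to 0.123), and that of TRIM56 without untreated replicate 2 or 3 (0.25 and 0.36) or any 24 h library (0.28 to 0.35), with adjusted p of 0.0522 to 0.218. The 12 h call of TRIM56 was lost without untreated replicate 2 (0.37), 12 h replicate 1 (0.42) or 12 h replicate 3 (0.40), with adjusted p of 0.0611 to 0.0907, and TRIM38 at 12 h was called without untreated replicate 1 (adjusted p = 0.0326), with the GC and length offset and by DESeq2.

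TRIM6 and TRIM26 were not called in HCC1937-OE-BRCA1. TRIM6, which builds free ubiquitin chains that activate the kinase IKBKE, read 4.62, 4.13 and 3.84 CPM untreated, 3.39, 4.36 and 3.62 CPM at 12 h and 4.79, 5.59 and 5.09 CPM at 24 h (log2 fold change -0.15, adjusted p = 0.825 at 12 h; 0.30, adjusted p = 0.281 at 24 h). TRIM26, a regulator of IRF3 encoded in the MHC class I region, read 25.0, 22.8 and 28.0 CPM untreated, 21.9, 15.4 and 43.4 CPM at 12 h and 36.0, 29.8 and 29.6 CPM at 24 h. Its 12 h libraries spread over a wider range than those of either other time, and leaving out single libraries moved its 12 h log2 fold change between -0.44 and 0.36 (all libraries 0.09, SE 0.26, adjusted p = 0.958; at 24 h 0.33, SE 0.26, adjusted p = 0.481).

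None of the 8 genes passed the test between 12 h and 24 h in HCC1937-OE-BRCA1, where 1.65% of all genes did in either direction; 2 had an unadjusted p under 0.05. These were TRIM6 (0.44, SE 0.16, adjusted p = 0.176) and TRIM14 (-0.25, SE 0.08, adjusted p = 0.136), and TRIM14 was called lower at 24 h by DESeq2 (adjusted p = 0.0342) and with the compared conditions only (adjusted p = 0.0102).

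**Figure D1:**
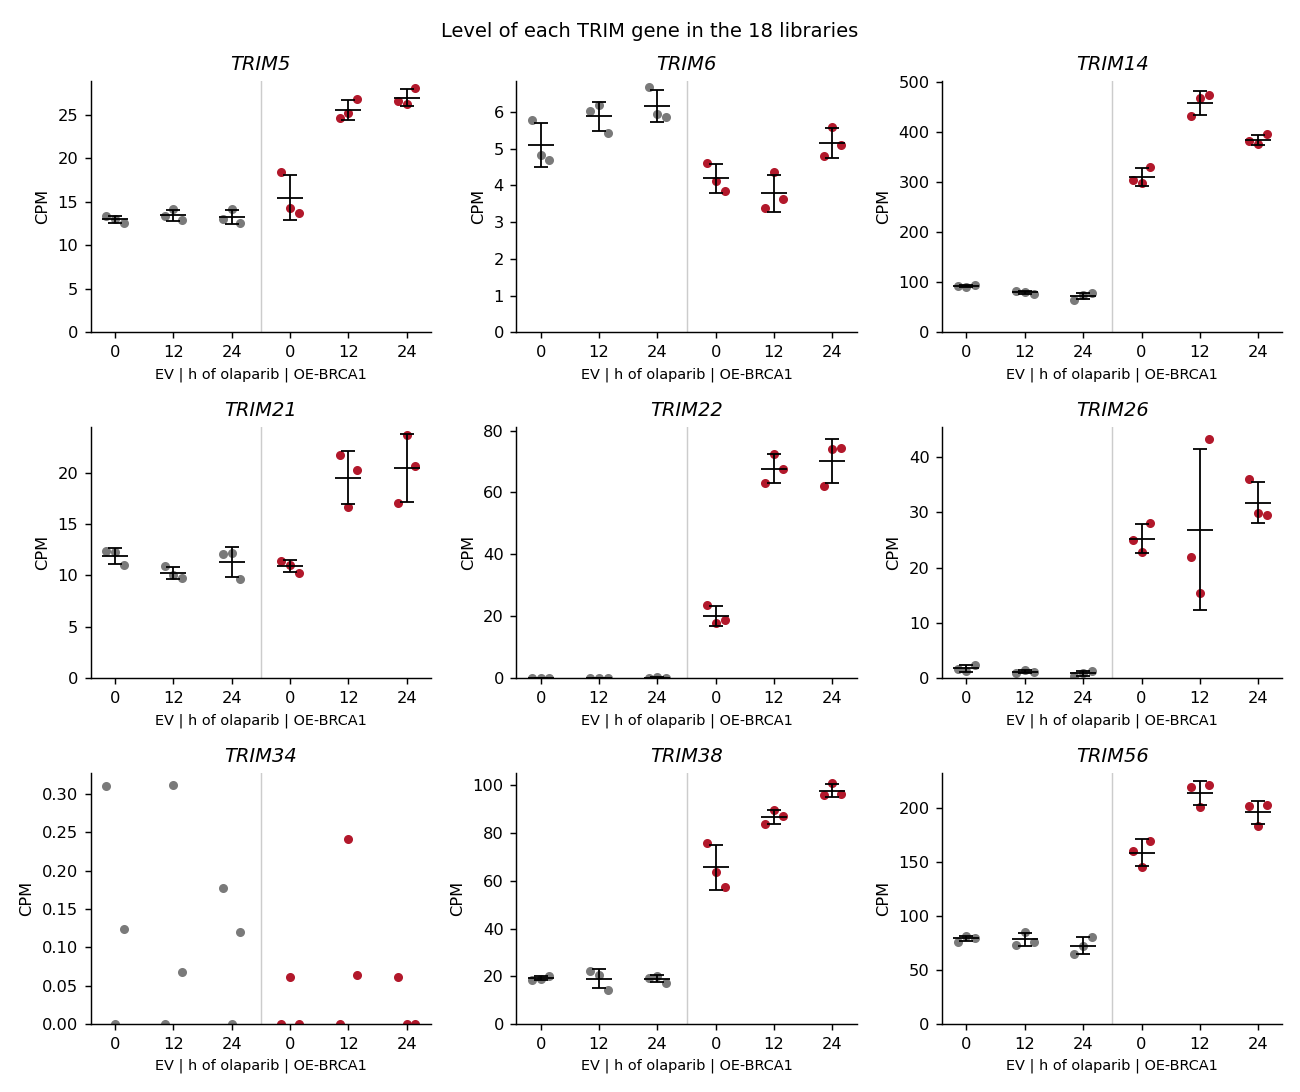
Level of each of the 9 TRIM genes in CPM (vertical axis from 0) in every library, by hours of olaparib, with HCC1937-EV in grey on the left and HCC1937-OE-BRCA1 in red on the right of each panel. Points are libraries and black bars the mean ± SD of 3, drawn for all genes but TRIM34, which had 25 counts in all; TRIM5, TRIM21 and TRIM22 rise in red, TRIM5 stays between 12.6 and 14.2 CPM in grey, and TRIM22 lies near 0 in grey.

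In HCC1937-EV the same genes were mostly not called, and the estimates of TRIM22 and TRIM26, both low in counts, were imprecise (SE 0.865 and 0.46 at 24 h). None of the 8 passed at 12 h, where 0.0436% of all genes did in either direction (8 genes), and 1 had an unadjusted p under 0.05. At 24 h TRIM14 fell and no other TRIM gene of the list passed, while 8.62% of all genes rose and 5.12% fell. Their median log2 fold change stood at -0.01 (12 h) and -0.04 (24 h).

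TRIM14 read 91.9, 89.8 and 95.0 CPM untreated, 81.8, 81.0 and 76.2 CPM at 12 h and 65.1, 74.8 and 78.4 CPM at 24 h in HCC1937-EV. All treated libraries lay below all untreated ones (-0.21, SE 0.09, adjusted p = 0.232 at 12 h; -0.34, SE 0.09, adjusted p = 0.0147 at 24 h). The 24 h call was lost without untreated replicate 1 (-0.35) or 3 (-0.34) or 24 h replicate 1 (-0.27) or 2 (-0.37), with adjusted p of 0.0509 to 0.0904. TRIM5 stayed between 12.6 and 14.2 CPM in all 9 HCC1937-EV libraries (0.05 and 0.03 at 12 h and 24 h, SE 0.12) and TRIM21 between 9.65 and 12.4 CPM (-0.21 and -0.07, SE 0.15). At 12 h the TRIM21 libraries lay below the untreated ones (9.78 to 10.89 against 10.98 to 12.36 CPM), without a call (adjusted p = 0.498). TRIM38 had means of 19.2 ± 0.77, 19.0 ± 4.05 and 18.9 ± 1.45 CPM (SD, n = 3) at 0 h, 12 h and 24 h, and TRIM56 of 79.1 ± 2.69, 78.3 ± 6.37 and 72.6 ± 7.68 CPM. TRIM6 read 5.10 ± 0.59, 5.88 ± 0.40 and 6.17 ± 0.44 CPM, with no overlap between 0 h and 24 h and no call (0.28, SE 0.16, adjusted p = 0.245). TRIM26 was low throughout, at 1.79 ± 0.59, 1.18 ± 0.24 and 0.91 ± 0.46 CPM (24 h -0.97, SE 0.46, adjusted p = 0.156). TRIM22 had 0, 3 and 0 counts in the untreated libraries, 2, 1 and 1 at 12 h and 2, 5 and 1 at 24 h, too few to read a response from. Between 12 h and 24 h none of the 8 passed in HCC1937-EV, against 0.18% of all genes, and none had an unadjusted p under 0.05.

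**Figure D2:**
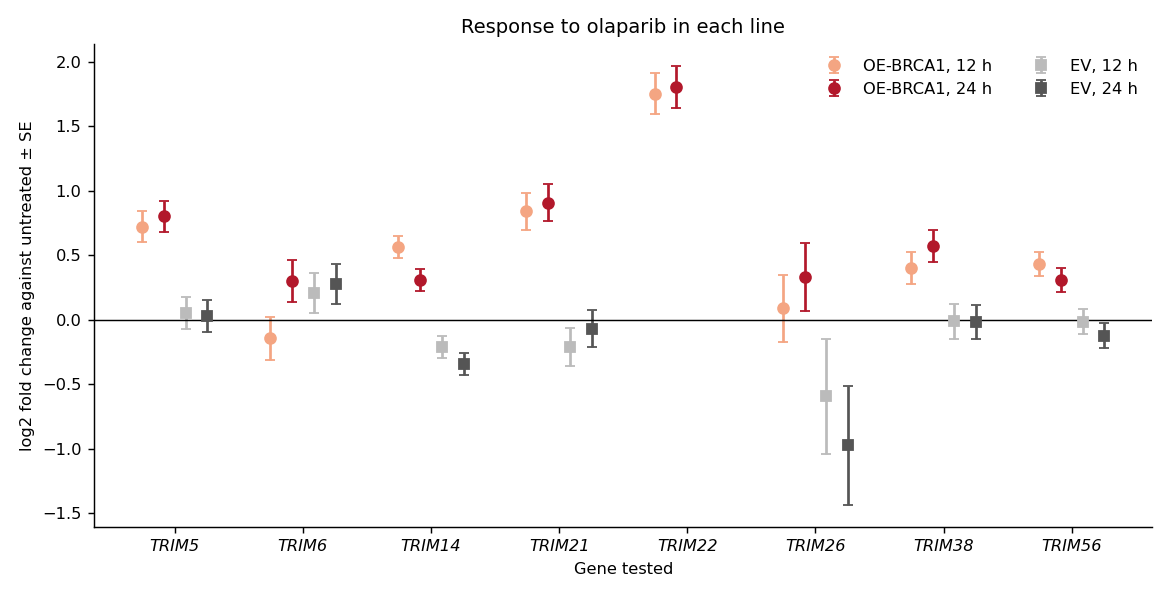
Log2 fold change against the untreated libraries of the same line, ± SE from the edgeR model, for the 8 genes tested, with circles for HCC1937-OE-BRCA1 and squares for HCC1937-EV at 12 h and 24 h. TRIM22 leads at 1.75 and 1.80 in HCC1937-OE-BRCA1, and its HCC1937-EV values are left out because they rest on 3 to 8 counts a condition.

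The difference of the response between the lines was tested directly. At 12 h the response of 2 of the 8 genes was higher in HCC1937-OE-BRCA1, against 0.376% of all genes, and at 24 h that of 5, against 8.16%. The median difference over the 8 genes was 0.68 and 0.62 on the log2 scale, beside -0.00 and 0.06 over all genes tested.

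TRIM14 (0.77, SE 0.12, adjusted p = 0.00242) and TRIM21 (1.05, SE 0.21, adjusted p = 0.0171) differed at 12 h. The call of TRIM21 was lost without untreated HCC1937-EV replicate 1 or 2, or HCC1937-OE-BRCA1 12 h replicate 1 or 3 (0.97 to 1.03, adjusted p of 0.0519 to 0.0591). TRIM5 missed the threshold at 12 h (0.67, SE 0.17, adjusted p = 0.0857), and was called without untreated HCC1937-OE-BRCA1 replicate 1 (0.81, adjusted p = 0.0102), with the GC and length offset (0.63, adjusted p = 0.0124) and by DESeq2 (0.67, adjusted p = 0.0121). At 24 h TRIM21 (0.98, SE 0.20, adjusted p = 0.0035), TRIM5 (0.77, SE 0.17, adjusted p = 0.00479) and TRIM14 (0.65, SE 0.12, adjusted p = 0.00174) differed, and they stayed called whichever single library was left out.

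TRIM38 (0.59, SE 0.18, adjusted p = 0.0286) and TRIM56 (0.43, SE 0.14, adjusted p = 0.0304) passed at 24 h less firmly. Both calls were lost without untreated HCC1937-OE-BRCA1 replicate 2 or its 24 h replicate 3. TRIM38 lost its call also without untreated HCC1937-EV replicate 3, HCC1937-EV 24 h replicate 3, untreated HCC1937-OE-BRCA1 replicate 3 or its 24 h replicate 2 (0.50 to 0.60 over these 6, adjusted p of 0.0537 to 0.0769). TRIM56 lost it also without any untreated HCC1937-EV library, HCC1937-EV 24 h replicate 1 or 2, or HCC1937-OE-BRCA1 24 h replicate 1 (0.35 to 0.46 over these 8, adjusted p of 0.0505 to 0.0936). The TRIM56 call was lost too with a minimum log2 fold change of 0.5 and without the filter on low counts (0.37, adjusted p = 0.163). Each library's deviation from its line was correlated with GC content (Spearman). The correlation was -0.44 to -0.29 in the HCC1937-OE-BRCA1 24 h libraries and 0.28 to 0.61 in the HCC1937-EV 24 h libraries. It was -0.58 to -0.225 in the untreated HCC1937-EV libraries, opposite in sign to those at 24 h, and 0.18 to 0.54 in the HCC1937-OE-BRCA1 12 h libraries. The untreated HCC1937-OE-BRCA1 libraries (-0.58 to 0.54) and the HCC1937-EV 12 h libraries (-0.59 to 0.64) spanned both signs. With an offset for GC content and length, the difference of TRIM38, whose longest transcript is 40.6% GC, was 0.16 (adjusted p = 0.422), and TRIM5, TRIM14, TRIM21 and TRIM56 stayed called at 24 h.

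TRIM6 differed by -0.35 (SE 0.23, adjusted p = 0.49) at 12 h and 0.02 (SE 0.23, adjusted p = 1.0) at 24 h, and TRIM26 by 0.68 (SE 0.52, adjusted p = 0.561) and 1.31 (SE 0.53, adjusted p = 0.0867). For TRIM22 the difference could not be estimated well (1.32, SE 1.20 at 12 h; 0.55, SE 1.25 at 24 h), since the HCC1937-EV conditions held 3, 4 and 8 counts.

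Before any treatment, TRIM14, TRIM22, TRIM26, TRIM38 and TRIM56 were higher in HCC1937-OE-BRCA1 than in HCC1937-EV. These are 5 of the 8 genes tested and none was called lower, but the lines differed at most genes, with 39.4% of all genes higher and 33.3% lower. TRIM22 passed the filter on low counts only through the HCC1937-OE-BRCA1 libraries, so its call here is no independent support. TRIM22 had 972 counts against 3, a ratio of 325 (95% counting interval 111 to 1580), and the ratio was 785 (306 to 2880; 3264 against 4 counts) at 12 h and 444 (225 to 1030; 3430 against 8 counts) at 24 h. TRIM26 was 14.03-fold higher (25.3 ± 2.63 against 1.79 ± 0.59 CPM, adjusted p = 1.56e-09), TRIM38 3.43-fold (65.8 ± 9.46 against 19.2 ± 0.77 CPM, adjusted p = 1.13e-10), TRIM14 3.36-fold (310 ± 17.01 against 92.2 ± 2.60 CPM, adjusted p = 1.39e-13) and TRIM56 2.0-fold (158 ± 12.4 against 79.1 ± 2.69 CPM, adjusted p = 7.34e-09). The lines did not overlap in these 5 genes, nor in TRIM5 and TRIM6, which were not called. How many of all genes did not overlap was not counted, so the lack of overlap is no result about the TRIM genes. Of the remaining 3 genes, TRIM5 read 15.5 ± 2.61 against 12.99 ± 0.42 CPM (log2 fold change 0.25, SE 0.12, adjusted p = 0.0679), TRIM6 4.20 ± 0.39 against 5.10 ± 0.59 CPM (-0.28, SE 0.16, adjusted p = 0.128) and TRIM21 10.9 ± 0.60 against 11.9 ± 0.77 CPM (-0.12, SE 0.15, adjusted p = 0.461). TRIM5 passed without HCC1937-OE-BRCA1 replicate 2 or 3 (adjusted p down to 0.0246) and read 0.11 without replicate 1; DESeq2, its size factors, the stricter filter on low counts and the GC and length offset also called it.

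Per kilobase of exon, TRIM14 was the highest of the 9 genes in both untreated lines, at 56.7 ± 3.11 CPM per kb in HCC1937-OE-BRCA1 and 16.9 ± 0.48 in HCC1937-EV. TRIM56 was next, at 14.2 ± 1.11 and 7.08 ± 0.24 CPM per kb. In untreated HCC1937-OE-BRCA1 the order went on with TRIM38 (6.99 ± 1.01), TRIM26 (5.77 ± 0.60), TRIM21 (5.65 ± 0.31), TRIM22 (3.34 ± 0.53), TRIM5 (3.22 ± 0.54), TRIM6 (1.06 ± 0.10) and TRIM34 (0.0076 ± 0.013). Neighbours in this order overlapped over their 3 libraries from TRIM38 to TRIM26, from TRIM26 to TRIM21 and from TRIM22 to TRIM5, and no others did. In untreated HCC1937-EV, TRIM21 (6.15 ± 0.40) and TRIM5 (2.71 ± 0.09) stood ahead of TRIM38 (2.04 ± 0.08) and TRIM6 (1.29 ± 0.15), and TRIM26 (0.41 ± 0.13) lay above TRIM34 (0.054 ± 0.058) and TRIM22 (0.010 ± 0.018), which overlapped. By 24 h of PARPi, TRIM22 followed TRIM14 and TRIM56 in HCC1937-OE-BRCA1 at 11.7 ± 1.19 CPM per kb, overlapping TRIM21 (10.6 ± 1.72), which overlapped TRIM38 (10.4 ± 0.30).

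**Figure D3:**
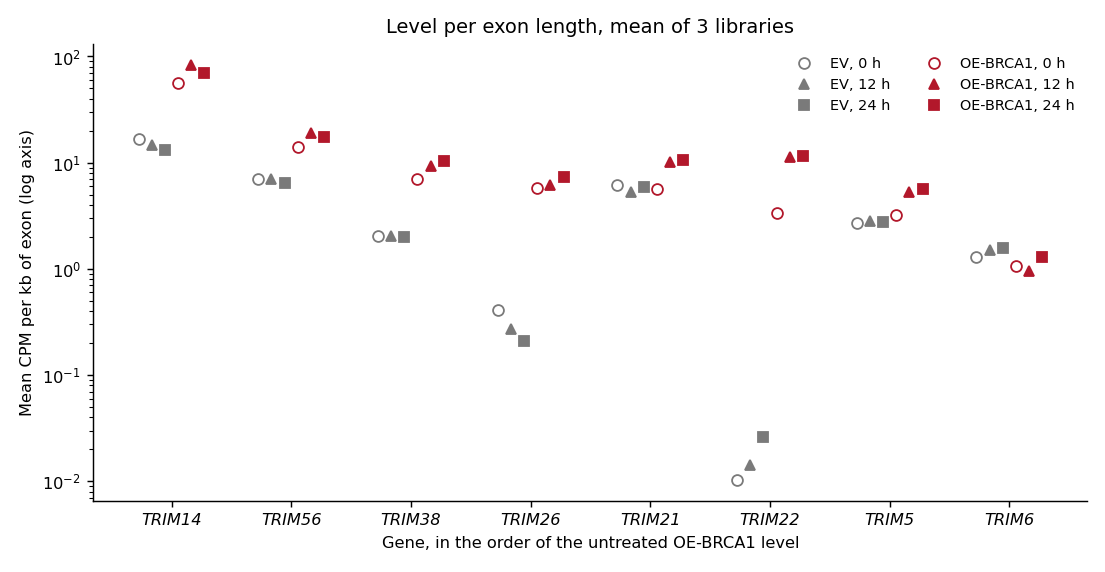
Mean level of 3 libraries per kilobase of exon (CPM per kb, log axis) for 8 of the TRIM genes in the 6 conditions, with HCC1937-EV in grey and HCC1937-OE-BRCA1 in red. TRIM14 is highest in both lines, TRIM21, TRIM5 and TRIM6 lie close in the untreated lines, and the grey TRIM22 points rest on 3, 4 and 8 counts.

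Across the 18 libraries, with the mean of each line taken out, TRIM5, TRIM21, TRIM22 and TRIM38 went together, with Pearson r of 0.72 to 0.87 over their 6 pairs. TRIM14 and TRIM56 were also close (r = 0.85), TRIM5 and TRIM56 gave 0.72, and the 13 pairs with TRIM6 or TRIM26 gave -0.40 to 0.43. These are descriptions over libraries that share conditions, depth and base composition. TRIM22 had 0 to 5 counts in each HCC1937-EV library, so its r values rest partly on very low counts. Among 11381 genes with a symbol and a mean of at least 5 CPM, the 3 most like TRIM5 were CPHL1P (r = 0.965), PCDHB9 (0.957) and GBP4 (0.956). Those most like TRIM22 were ACSS2 (0.887), IFIT2 (0.867) and STAT2 (0.867). RTP4 (0.905), RSAD2 (0.896) and TPRXL (0.895) came nearest to TRIM21, NT5C3A (0.921), SAMD9 (0.914) and HSDL1 (0.908) to TRIM38, and NPC1 (0.943), RNF213 (0.936) and OAS3 (0.920) to TRIM56. TRIM14 was most like TRIM25 (0.912), CLMN (0.909) and NPC1 (0.894), and TRIM6 like SKAP2 (0.849), ITFG1 (0.835) and CENPN (0.834). The values for TRIM26 were the lowest, with AKNA (0.760), CNNM4 (0.759) and MEIS2 (0.757).

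**Figure D4:**
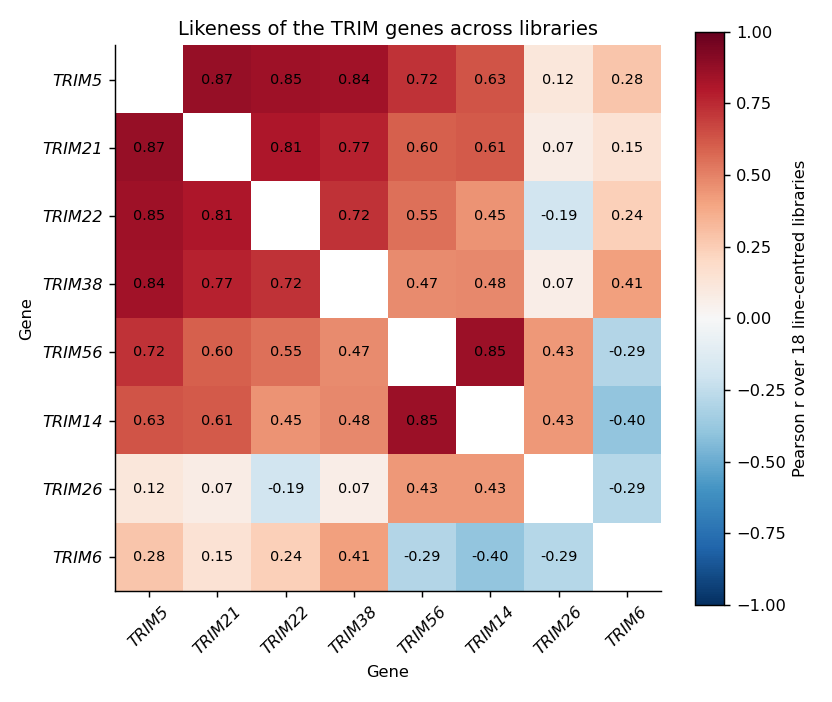
Pearson r between the 8 tested TRIM genes over 18 libraries, computed on log2 CPM after the mean of each line was subtracted, with red for positive and blue for negative values. TRIM5, TRIM21, TRIM22 and TRIM38 form a block of 0.72 to 0.87, and TRIM14 and TRIM56 a pair at 0.85.

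Of 37 other TRIM genes tested, 1 rose and none fell at 12 h in HCC1937-OE-BRCA1 (median log2 fold change 0.01), where 1.7% of all genes rose and 0.605% fell. At 24 h 1 rose and 3 fell (median -0.03), where 4.71% and 3.55% of all genes did. With so few calls these shares cannot be set apart from those of all genes. The gene that rose at 12 h was TRIM25, the ligase that activates the RNA sensor RIG-I. It read 184, 182 and 217 CPM untreated, 309, 305 and 307 CPM at 12 h and 228, 218 and 240 CPM at 24 h (0.66, adjusted p = 0.000153 at 12 h; 0.24, adjusted p = 0.118 at 24 h), and it fell between 12 h and 24 h (-0.42, adjusted p = 0.0205). At 24 h TRIM31 rose from 1.12 ± 0.50 to 3.54 ± 0.67 CPM (adjusted p = 0.0291), and TRIM16 (-0.68), TRIM47 (-0.50) and TRIM65 (-0.41) fell. In HCC1937-EV no other TRIM gene passed at 12 h, where 0.0436% of all genes did in either direction. At 24 h TRIM7 (0.77) and TRIM16 (0.50) rose and TRIM24 (-0.43) fell, with adjusted p of 0.00687, 0.0125 and 0.0258. Of all genes, 8.62% rose and 5.12% fell at that time. Between the untreated lines 15 of the 37 were higher and 18 lower in HCC1937-OE-BRCA1 (median -0.35, against 1.37 for the antiviral genes), where 39.4% and 33.3% of all genes were. The largest rises were TRIM46 (12.1 ± 1.70 CPM in HCC1937-OE-BRCA1 against 0.33 ± 0.19 CPM), TRIM17 (log2 fold change 3.25) and TRIM59 (3.18), and TRIM36 (-3.06) and TRIM3 (-2.75) were lower. TRIM68, also on chromosome 11, had no count in the 9 HCC1937-OE-BRCA1 libraries and 595 in untreated HCC1937-EV, so it was at least 198-fold lower (3 counts over the group). It passed the filter on low counts only through HCC1937-EV libraries.

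Genes known to bind, be modified by or signal with these TRIM proteins gave a mixed picture. Of 31 tested of 32 listed, 8 rose and none fell at 12 h in HCC1937-OE-BRCA1 (median -0.00), beside 1.7% and 0.605% of all genes, and 10 rose and 1 fell at 24 h (median 0.15), beside 4.71% and 3.55%. The sensors of double-stranded RNA were among them: IFIH1 (MDA5) went from 125 ± 20.6 to 295 ± 11.5 CPM at 12 h (1.23, adjusted p = 9.98e-06), RIGI from 4.02 ± 1.19 to 10.5 ± 0.42 CPM (1.38, adjusted p = 0.00346), DHX58 by 1.02 (adjusted p = 0.00155) and TLR3 by 0.87 (adjusted p = 0.013). STAT2, which with IRF9 binds the ISRE, rose from 66.7 ± 3.45 to 168 ± 1.96 CPM (1.33, adjusted p = 2.75e-09), and IRF1 by 0.65, while IRF9 read 1.07 and 1.05 CPM. At 24 h RIGI (1.501), TLR3 (1.28) and STAT2 (1.28) had the largest rises. TRAF3, the ubiquitin ligase downstream of MAVS, fell at 24 h (-0.37, adjusted p = 0.0239), and STING1 (0.70, adjusted p = 0.0122) and NMI (0.50, adjusted p = 0.0209) rose. Other targets named above were not called at 24 h: MAVS read -0.01 (adjusted p = 0.976), CGAS 0.03 (adjusted p = 0.943), TAB2 0.16 (adjusted p = 0.429), IKBKE -0.16 (adjusted p = 0.47), TICAM1 (TRIF) -0.08 (adjusted p = 0.731) and IRF3 -0.31 (adjusted p = 0.261). In HCC1937-EV none of the 31 passed at 12 h, beside 0.0436% of all genes in either direction. At 24 h 3 rose and 2 fell, shares close to the 8.62% and 5.12% of all genes. The risers were IRF3 (0.50, adjusted p = 0.0488), IFI35 (0.55, adjusted p = 0.0345) and DHX58, the latter from 18 counts over the untreated libraries, and TAB2 (-0.54, adjusted p = 0.00952) and UBE2V1 (-0.68, adjusted p = 0.0341) fell. Between the untreated lines 17 of the 31 were higher and 7 lower in HCC1937-OE-BRCA1, beside 39.4% and 33.3% of all genes. IRF3 was among the higher ones, with means of 162 against 75.8 CPM (1.10, adjusted p = 4.8e-06). At 24 h its means were 131 CPM in HCC1937-OE-BRCA1 and 107 CPM in HCC1937-EV. RIGI and IRF5, also among them, passed the filter on low counts only through HCC1937-OE-BRCA1 libraries. DHX58 read 31.7 ± 5.04 against 0.37 ± 0.16 CPM, RIGI had 194 counts against 3 (ratio 64.9, 95% counting interval 21.9 to 317) and IRF5 403 against 1 (404, 72.1 to 16000), whereas TAB3 (-1.41), PPIA (-0.80), the cyclophilin that binds the capsid seen by TRIM5, and the kinase TBK1 (-0.60) were lower.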

How the data were processed

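RNA was extracted with TRIzol and libraries were made with the NEBNext Ultra II kit. Per the labels, the processing notes name HISAT2, featureCounts, DESeq2 and GRCh38/hg38; versions, annotation, strand setting and the handling of shared exons are not given in the sources used here. The authors deposited raw counts per gene, unnormalized whole numbers, and the 18 tables of single libraries equalled the joint table. Groups came from the sample titles. Ensembl identifiers were matched without version to a name table (34966 of 35044, of which 26360 have a symbol other than the identifier).

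Counts were tested with edgeR 4.0.16 in R 4.3.3 (TMM, filterByExpr by condition, 18335 genes, quasi-likelihood test, 1 mean per condition over 18 libraries). The threshold was 0.05 on the p adjusted over all genes tested (Benjamini-Hochberg), with no minimum on the fold. An exact permutation test of 3 against 3 libraries cannot go below 0.1, so none was used. Intervals and floors (3 counts) cover counting error only. The script was tested on simulated data.

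The TRIM genes, the lists and the motifs were chosen with earlier results of these data known, so no count over a list is independent support. All 9 TRIM genes, BRCA1 and TRIM25 were named whatever their values. Other TRIM genes (mean of at least 1 CPM) and partner genes were named by the 3 largest rises and falls among called genes of a comparison; IRF1, IRF9, DHX58, TLR3, STING1, NMI, MAVS, CGAS, TAB2, IKBKE, TICAM1 and IRF3 were added after their values were seen, and the values of 1 partner gene are not reported here. Genes alike in pattern were ranked by Pearson r. No label says what the replicate numbers mark, and the main model did not pair libraries by them. Alternatives were DESeq2 1.42.0 (size factors, and its Wald test), no filter, at least 10 counts in every library, a minimum log2 fold change of 0.5, a replicate block, a GC and length offset, only the compared conditions, each library left out and, chosen after seeing the data, the libraries of the same line only. An alternative with the TRIM6-TRIM34 read-through was not run.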

Additional observations from a re-analysis of the deposited data

Results flagged for a closer look

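Values are listed here where the response to PARPi differed between the lines by the test of the difference itself (edgeR's quasi-likelihood test, log2 scale, HCC1937-OE-BRCA1 minus HCC1937-EV). At 12 h these were TRIM14 (0.77) and TRIM21 (1.05). At 24 h these were TRIM5 (0.77), TRIM14 (0.65), TRIM21 (0.98), TRIM38 (0.59) and TRIM56 (0.43). The TRIM14 differences and the 12 h difference of TRIM21 combine a rise in HCC1937-OE-BRCA1 with lower values in HCC1937-EV. At 12 h the HCC1937-EV estimate was -0.21 for each gene, and neither was called.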

How the results depend on the processing

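Of 1200 values of single TRIM genes under other settings, 1129 kept their side of the threshold, 50 lost their call, 21 gained one and 0 reversed as a call. Among the 1129, 46 changed sign and were called under neither setting. Of 153 counts of called genes, 16 moved by over 1.5 times. Between 12 h and 24 h in HCC1937-OE-BRCA1, 1 gene (TRIM14) was called with the compared conditions only and with the DESeq2 Wald test. At 24 h in HCC1937-EV, 0 were called with a minimum log2 fold change of 0.5, 2 without a filter (TRIM26 added), and 0 to 1 without single libraries. For the difference between lines, 4 were called at 12 h by the DESeq2 Wald test (TRIM5 and TRIM56 added) and 1 to 3 without single libraries, and 3 to 5 at 24 h. For the response in HCC1937-OE-BRCA1, leaving out single libraries gave 4 to 6 genes at each time. The cause was not tested. With the replicate block the counts were 5 and 6 in HCC1937-OE-BRCA1 and 5 for the difference at 24 h, as without it. Same-numbered libraries did not deviate together in all 3 numbers of any pair of conditions. Some did in single numbers. HCC1937-EV at 12 h and untreated HCC1937-OE-BRCA1 gave r = 0.658, -0.392 and 0.507 for replicates 1, 2 and 3. Whether such libraries shared a batch was not tested.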
